A study of Mus musculus with 4 samples.

Results

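The tumour necrosis factor (TNF) superfamily was followed through all 4 libraries as the genes whose symbol begins with Tnfsf or Tnfrsf, together with Tnf, Lta, Ltb, Ltbr, Cd40, Cd40lg, Cd27, Cd70, Fas, Fasl and Eda2r. This rule took 44 of the 31053 genes in the count tables. By symbol, 19 of them are ligands and 25 are receptors, and the ligands include the antisense RNA Tnfsf13os and the readthrough locus Tnfsfm13. All 44 had at least 1 unique molecular identifier (UMI, a tag that marks 1 captured RNA molecule) in the cells kept, and 36 had at least 20 UMIs in every library. Together the members gave 53097 UMIs in the KO premalignant library, 81326 in the WT premalignant library, 92859 in the KO eHCC library and 86418 in the WT eHCC library.

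The ligands of this family are mostly trimeric membrane proteins that can also be shed, and they cluster their receptors on the neighbouring cell. Receptors such as OX40 (Tnfrsf4), 4-1BB (Tnfrsf9), GITR (Tnfrsf18) and CD27 bind TRAF adaptors and costimulate T cells through NF-kappaB, whereas Fas, TNFR1 (Tnfrsf1a) and the TRAIL receptor (Tnfrsf10b) carry a death domain and can start apoptosis. In the liver the family is known for hepatocyte killing by Fas and TNF, for lymphotoxin signalling in inflammation, for TRAIL-bearing NK cells and for the B cell survival factors BAFF (Tnfsf13b) and APRIL (Tnfsf13).

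The study profiled mouse liver tissue by droplet single-cell RNA sequencing of transcript 5' ends, with 1 library for each combination of genotype label (KO or WT for Mef2d, which encodes a transcription factor) and stage (premalignant liver or early hepatocellular carcinoma, eHCC). The labels describe tissue that was cut up and enzymatically dissociated; they do not state the strain, age, sex, tumour model or number of animals, nor which part of Mef2d was deleted and in which cells. With 1 library a group there was no replicate check and no test between groups. Levels are given in CPM (the UMIs of a gene summed over the cells of a class, per 1000000 UMIs of that class), with exact Poisson 95% intervals in brackets, and differences as log2 ratios with exact binomial 95% intervals. These intervals cover counting error only, and in such sums fewer positive cells and less RNA per cell cannot be told apart.

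The files held between 9672 and 14167 cell barcodes a library, of which 8382 to 12229 were kept, with a median of 4306 to 8316 UMIs a cell. Between 94 and 118 barcodes of each library also occurred in another library. Mef2d itself was at 100.6 and 96.4 CPM over all kept cells of the libraries labelled KO (premalignant and eHCC) and at 72.2 and 61.3 CPM in those labelled WT. It was thus higher under the KO label at both stages, and whether the 5' tags can report the deletion is unknown, so the genotypes are named below only as labels. Cells were grouped by clustering without the members, and classes are called "-like" from marker genes. Hepatocyte-like cells numbered only 18 to 72 a library, so the tissue is described here mainly by its immune and endothelial cells. Haemoglobin and other erythroid genes made up 1404 to 12533 CPM in the other classes of at least 50 cells in the KO eHCC library against 108 to 387 CPM in those of the WT eHCC library, and the part of free RNA in the results was not tested.

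Several of the members described below lie side by side in the genome. Tnfrsf4 (chr4:156013843-156016612) and Tnfrsf18 (chr4:156026164-156028895) are 9551 bases apart on the plus strand of GRCm38, Tnfrsf9 lies on the same chromosome at chr4:150914562-150946102, and Ltb, Tnf and Lta adjoin each other on chromosome 17, with 3060 bases between Ltb and Tnf and 1157 between Tnf and Lta. The 250 bases before the transcription start, 5' to 3' on the gene's strand, are printed for the members that carry the main differences below, from RefSeq (GRCm38.p6). The windows are chr4:156013445-156013694 for Tnfrsf4, chr4:156026072-156026321 for Tnfrsf18, chr4:150927749-150927998 for the downstream start of Tnfrsf9, chr17:35194257-35194506 for Ltb and chr17:35202008-35202257, minus strand, for Tnf. Capitals mark matches, on either strand, to GGGA followed by any 4 bases and CC (a general NF-kappaB pattern) or TGACTCA (the AP-1 pattern).
Tnfrsf4: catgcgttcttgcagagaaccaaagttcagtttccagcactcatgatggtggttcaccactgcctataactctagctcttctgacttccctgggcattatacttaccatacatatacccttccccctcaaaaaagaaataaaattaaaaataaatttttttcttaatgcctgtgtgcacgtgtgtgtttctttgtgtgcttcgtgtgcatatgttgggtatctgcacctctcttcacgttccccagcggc
Tnfrsf18: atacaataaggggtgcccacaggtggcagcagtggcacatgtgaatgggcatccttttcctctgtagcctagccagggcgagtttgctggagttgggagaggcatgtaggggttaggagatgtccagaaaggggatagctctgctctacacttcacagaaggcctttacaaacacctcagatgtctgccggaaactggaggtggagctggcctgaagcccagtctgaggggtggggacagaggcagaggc
Tnfrsf9: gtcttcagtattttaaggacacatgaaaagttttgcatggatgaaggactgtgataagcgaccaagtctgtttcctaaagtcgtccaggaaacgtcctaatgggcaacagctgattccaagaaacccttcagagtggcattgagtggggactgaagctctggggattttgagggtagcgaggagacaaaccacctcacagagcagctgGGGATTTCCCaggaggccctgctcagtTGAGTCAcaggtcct
Ltb: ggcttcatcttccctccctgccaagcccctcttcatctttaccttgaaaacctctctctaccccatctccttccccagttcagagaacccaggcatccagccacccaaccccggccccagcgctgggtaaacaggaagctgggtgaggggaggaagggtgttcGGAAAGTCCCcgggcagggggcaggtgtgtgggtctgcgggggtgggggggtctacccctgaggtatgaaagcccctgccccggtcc
Tnf: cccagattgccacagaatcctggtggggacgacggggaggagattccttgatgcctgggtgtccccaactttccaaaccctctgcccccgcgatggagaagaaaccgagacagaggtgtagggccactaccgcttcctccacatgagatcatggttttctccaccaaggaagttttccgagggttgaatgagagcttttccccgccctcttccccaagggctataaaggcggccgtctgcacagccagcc
The Tnfrsf9 window holds the NF-kappaB pattern on both strands at the same bases and 1 TGACTCA match, and the Ltb window holds 1 NF-kappaB match. The windows of Tnfrsf4, Tnfrsf18, Tnf and the upstream start of Tnfrsf9 hold neither set of letters, which says nothing about the factors themselves. Of 37 windows found for 33 members, 9 (24.3%) held the NF-kappaB pattern and 6 (16.2%) held TGACTCA, against 17.6% and 4.46% of all 32851 windows of the same length.

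Most ligands had 1 lineage in which they were highest when the 4 libraries were summed. CD4 T-like cells led for Cd40lg (158 CPM), the ligand that activates CD40 on B and myeloid cells, for Tnfsf8 (CD30 ligand, 182 CPM), for Tnfsf11 (RANKL, 48.0 CPM) and narrowly for Lta (10.1 CPM, with 9.20 in B-like cells). Fasl, the ligand of Fas on cytotoxic cells, was at 145 CPM in NK-like and 121 CPM in CD8 T-like cells. Ltb, the membrane anchor of the lymphotoxin heterotrimer, was at 808 CPM in regulatory T-like and 760 CPM in B-like cells, with all T-like classes high. TNF itself was highest in mast cell or basophil-like cells (167 CPM), followed by neutrophil-like cells (79.8 CPM). Tnfsf10 (TRAIL, 150 CPM) and Tnfsf12 (TWEAK, 110 CPM) were led by liver sinusoidal endothelial (LSEC)-like cells. Tnfsf9 (4-1BB ligand) was highest in type 2 dendritic-like cells (198 CPM) and Cd70 in mature dendritic-like cells (27.3 CPM). Tnfsf13b was highest in macrophage-like cells (26.2 CPM) and Tnfsf14 (LIGHT) in neutrophil-like cells (28.4 CPM).

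Several ligands had few UMIs. Tnfsf18, the GITR ligand, had 0 and 1 UMIs in the premalignant libraries (KO and WT) and 9 and 21 in the eHCC libraries, and Tnfsf15, a ligand of Tnfrsf25, had 7, 7, 33 and 38 in the same order. Cd70 had 5, 10, 41 and 19 UMIs. Tnfsf4 (OX40 ligand) had 21, 21, 332 and 84, and in CD8 T-like cells at eHCC it was at 5.11 and 2.29 CPM in KO and WT, a log2 ratio of 1.16 [0.66, 1.68]. Tnfsf13 had 6, 4, 7 and 36 UMIs, but it shares its locus on chromosome 11 with Tnfsf12, the readthrough Tnfsfm13 (994 UMIs in all) and the antisense Tnfsf13os (1320 UMIs), so the split of reads among these 4 is uncertain. Tnfsf13os was highest in monocyte-like cells (22.1 CPM) and Tnfsfm13 in macrophage-like cells (9.22 CPM).

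The receptors were led by lymphoid, B-lineage, myeloid or non-immune classes, but these groups overlapped. The second class came from another group for Tnfrsf1b (178 CPM in monocyte-like) and Tnfrsf1a (272 CPM in neutrophil-like cells). The same held for Tnfrsf23 (30.2 CPM in neutrophil-like) and Tnfrsf26 (26.2 CPM in CD4 T-like cells). Regulatory T-like cells led for the costimulatory receptors Tnfrsf4 (846 CPM), Tnfrsf18, Tnfrsf9 (325 CPM) and Cd27 (365 CPM), for TNFR2 (Tnfrsf1b, 200 CPM) and for CD30 (Tnfrsf8, 7.06 CPM), while CD4 T-like cells led for the death receptor DR3 (Tnfrsf25, 32.7 CPM). The BAFF receptor Tnfrsf13c was highest in B-like cells (180 CPM) and the BAFF and APRIL receptor TACI (Tnfrsf13b) in plasmacytoid dendritic-like cells (185 CPM), followed by B-like cells (120 CPM). Tnfrsf17 (BCMA), the receptor of plasma cells, was at 4.21 CPM in B-like cells. Mature dendritic-like cells, 97 in all, led for Cd40 (165 CPM), Fas (119 CPM) and RANK (Tnfrsf11a, 116 CPM), and Tnfrsf21 (DR6) was led by monocyte-like cells (76.2 CPM). LSEC-like cells led for TNFR1 (Tnfrsf1a, 349 CPM) and the lymphotoxin beta receptor (Ltbr, 109 CPM), and for the decoy TRAIL receptor Tnfrsf22 (16.9 CPM). Vascular endothelium-like cells led for the related Tnfrsf23 (33.6 CPM) and Tnfrsf26 (30.1 CPM), for Tnfrsf10b (23.4 CPM) and for Eda2r (4.96 CPM). Osteoprotegerin (Tnfrsf11b), the soluble decoy of RANKL, was highest in stellate or fibroblast-like cells (94.6 CPM), and Tnfrsf19 (36.5 CPM) and the TWEAK receptor Tnfrsf12a (70.9 CPM) in cholangiocyte-like cells. With the libraries summed, Tnfrsf14 (HVEM) was at or below 4.85 CPM in every named class.

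**Figure D1:**
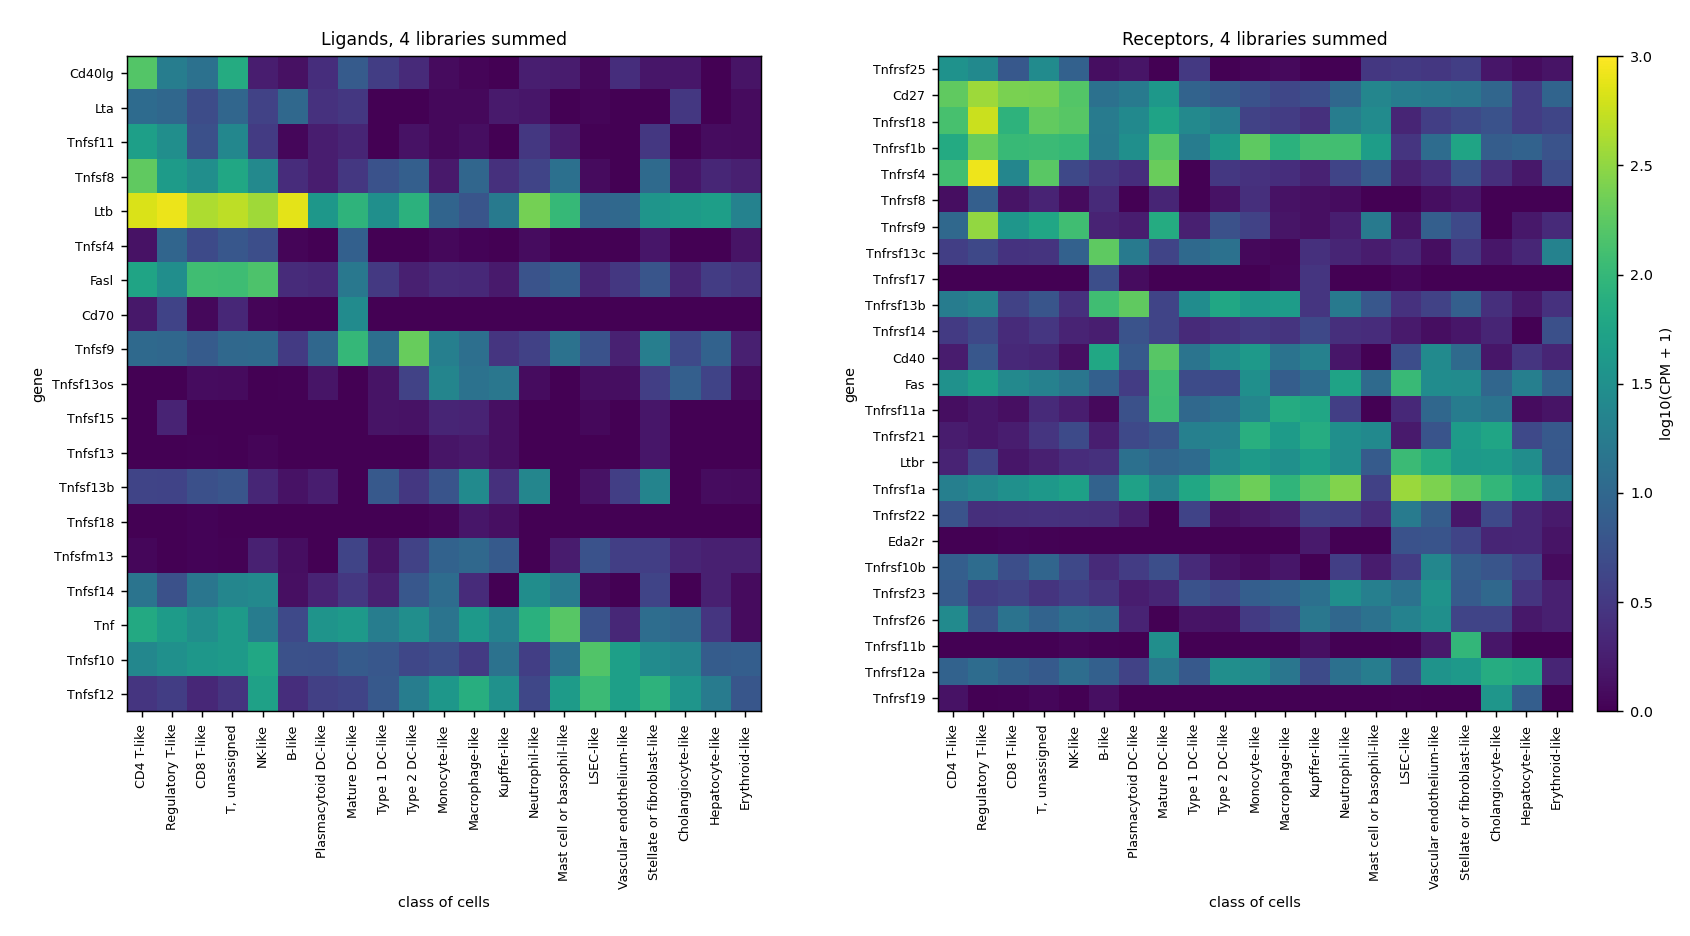
Levels of the 19 ligands (left) and 25 receptors (right) in each class of cells, with the 4 libraries summed, as log10(CPM + 1). Colours are meant to be read along a row; Tnfsf10 and Tnfrsf1a peak in LSEC-like cells, Tnfrsf13c in B-like cells, and Tnfrsf4, Tnfrsf9, Tnfrsf18 and Cd27 in regulatory T-like cells.

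These leading classes were not fixed across libraries, partly because the libraries held different cells. Of the 36 members with at least 20 UMIs in every library, 5 had the same leading class in all 4 among the classes of at least 50 cells: Tnfsf8 (CD4 T-like), Tnfrsf13b (plasmacytoid dendritic-like), Tnfrsf13c (B-like), and Tnfsf13os and Tnfrsf21 (monocyte-like). With all T-like cells taken as 1 class the number was 13. LSEC-like cells numbered 2971 and 5520 in the premalignant libraries (KO and WT) and 17 and 48 in the eHCC libraries. Their Tnfsf10, Tnfsf12, Ltbr and Tnfrsf1a could thus be measured before tumours only. Macrophage-like cells went the other way, from 18 and 11 cells to 221 and 2288, and regulatory T-like cells from 9 and 11 to 99 and 209. In these classes members could be compared at 1 stage only. Cluster t15, named CD4 T-like, also had markers of regulatory T cells and held 151 KO and 168 WT premalignant cells.

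At eHCC most receptors measured in T-like and NK-like cells were at a higher level in the KO library than in the WT library. Among pairs of a member and a class with at least 50 UMIs in the libraries together, 57 of 153 (37.3%) were at least 1.5-fold higher in KO, against 9.61% of all gene and class pairs, and 27 (17.6%) were at least 1.5-fold lower, against 17.4%. The 57 pairs belonged to 22 members and the 27 to 13, and members recur across classes, so the pairs are not independent of each other. Intervals excluded 0 for 49 of the 57 and 23 of the 27. In CD8 T-like cells, 9 of 17 receptors were past 1.5-fold higher and 2 lower (median log2 ratio 0.60), where 8.67% of all genes were higher and 14.8% lower and their median was -0.08. CD4 T-like cells had 5 of 7 receptors higher and 1 lower (0.89), regulatory T-like cells 6 of 6 higher (0.78) and NK-like cells 6 of 9 higher and 1 lower (0.72), whereas B-like cells had 3 of 7 higher and 3 lower (-0.09). Over all genes, 9.1% were higher and 14.2% lower in CD4 T-like cells, and 10.2% and 11.7% in regulatory T-like cells. These shares were 10.3% and 15.2% in NK-like cells and 7.42% and 11.5% in B-like cells. Of the 12 ligands measured in CD8 T-like cells, 2 were past 1.5-fold higher and 0 lower (median -0.10).

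Tnfrsf9, which encodes 4-1BB, was higher in the KO eHCC library in CD8 T-like, NK-like and regulatory T-like cells. In CD8 T-like cells it was at 14.2 [11.2, 17.8] and 16.5 [13.2, 20.5] CPM in the premalignant libraries (KO and WT) and at 58.1 [55.3, 61.0] and 15.3 [13.6, 17.2] CPM in the eHCC libraries. The KO eHCC library thus stood apart from the other 3, and the log2 ratio KO over WT at eHCC was 1.92 [1.74, 2.10]. In NK-like cells the 4 libraries, in the same order, were at 97.9, 70.1, 171 and 44.6 CPM, a log2 ratio of 1.94 [1.63, 2.26] at eHCC. Regulatory T-like cells had 635 [579, 695] CPM in KO eHCC and 138 [117, 162] in WT eHCC, a log2 ratio of 2.2 [1.93, 2.48], and Tnfrsf9 UMIs were found in 76.8% and 26.3% of their cells. These regulatory cells formed 1 cluster in both libraries. Their median depth at eHCC was 6366 UMIs a cell in KO and 3953 in WT, so these shares were taken at unequal depth. After thinning every cell to 1000 UMIs, 4.23% of KO and 1.25% of WT CD8 T-like cells at eHCC held a Tnfrsf9 UMI, against 18.8% and 5.97% before thinning.

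Tnfrsf4, the OX40 gene, and its neighbour Tnfrsf18, the GITR gene, were also higher in the KO eHCC library. In CD8 T-like cells Tnfrsf4 was at 8.70 [6.37, 11.6] and 7.17 [5.03, 9.93] CPM in the premalignant libraries (KO and WT), and at 36.6 [34.4, 38.8] and 10.0 [8.67, 11.6] CPM at eHCC, a log2 ratio of 1.86 [1.64, 2.09]. In CD4 T-like cells the order of the genotypes turned between stages, with 38.9 and 76.6 CPM in the premalignant KO and WT libraries and 269 and 119 CPM at eHCC, a log2 ratio of 1.18 [0.95, 1.41] at eHCC. Regulatory T-like cells at eHCC had 1258 and 596 CPM, a log2 ratio of 1.08 [0.93, 1.22]. Tnfrsf18 differed less, by 0.73 [0.63, 0.82] in CD8 T-like cells (108 against 65.2 CPM), 0.62 [0.40, 0.85] in CD4 T-like cells (224 against 145 CPM) and 0.79 [0.62, 0.96] in regulatory T-like cells (799 against 462 CPM). In NK-like cells Tnfrsf18 was at 181 and 146 CPM, under the 1.5-fold limit.

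Cd27 and Tnfrsf1b had the same direction in most lymphoid classes. Cd27, whose product sustains T cell survival, was at 257 and 258 CPM in CD8 T-like cells before tumours (KO and WT) and at 291 and 188 CPM at eHCC, so that the WT eHCC library was the low one. Its log2 ratio KO over WT at eHCC was 0.63 [0.57, 0.69] in these cells, 0.89 [0.63, 1.15] in CD4 T-like, 0.64 [0.43, 0.86] in NK-like and 0.76 [0.54, 0.99] in regulatory T-like cells. Tnfrsf1b, the TNF receptor without a death domain, was at 83.1, 40.3, 144 and 70.3 CPM in CD8 T-like cells, so that KO exceeded WT at each stage. At eHCC its log2 ratio was 1.04 [0.95, 1.13] in CD8 T-like, 1.18 [0.86, 1.5] in CD4 T-like, 0.96 [0.69, 1.25] in NK-like, 0.64 [0.33, 0.95] in regulatory T-like and 1.42 [0.83, 2.05] in B-like cells. Tnfrsf1b was past 1.5-fold in 7 of the 9 classes in which it was measured, and Cd27 in 7 of 8.

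**Figure D2:**
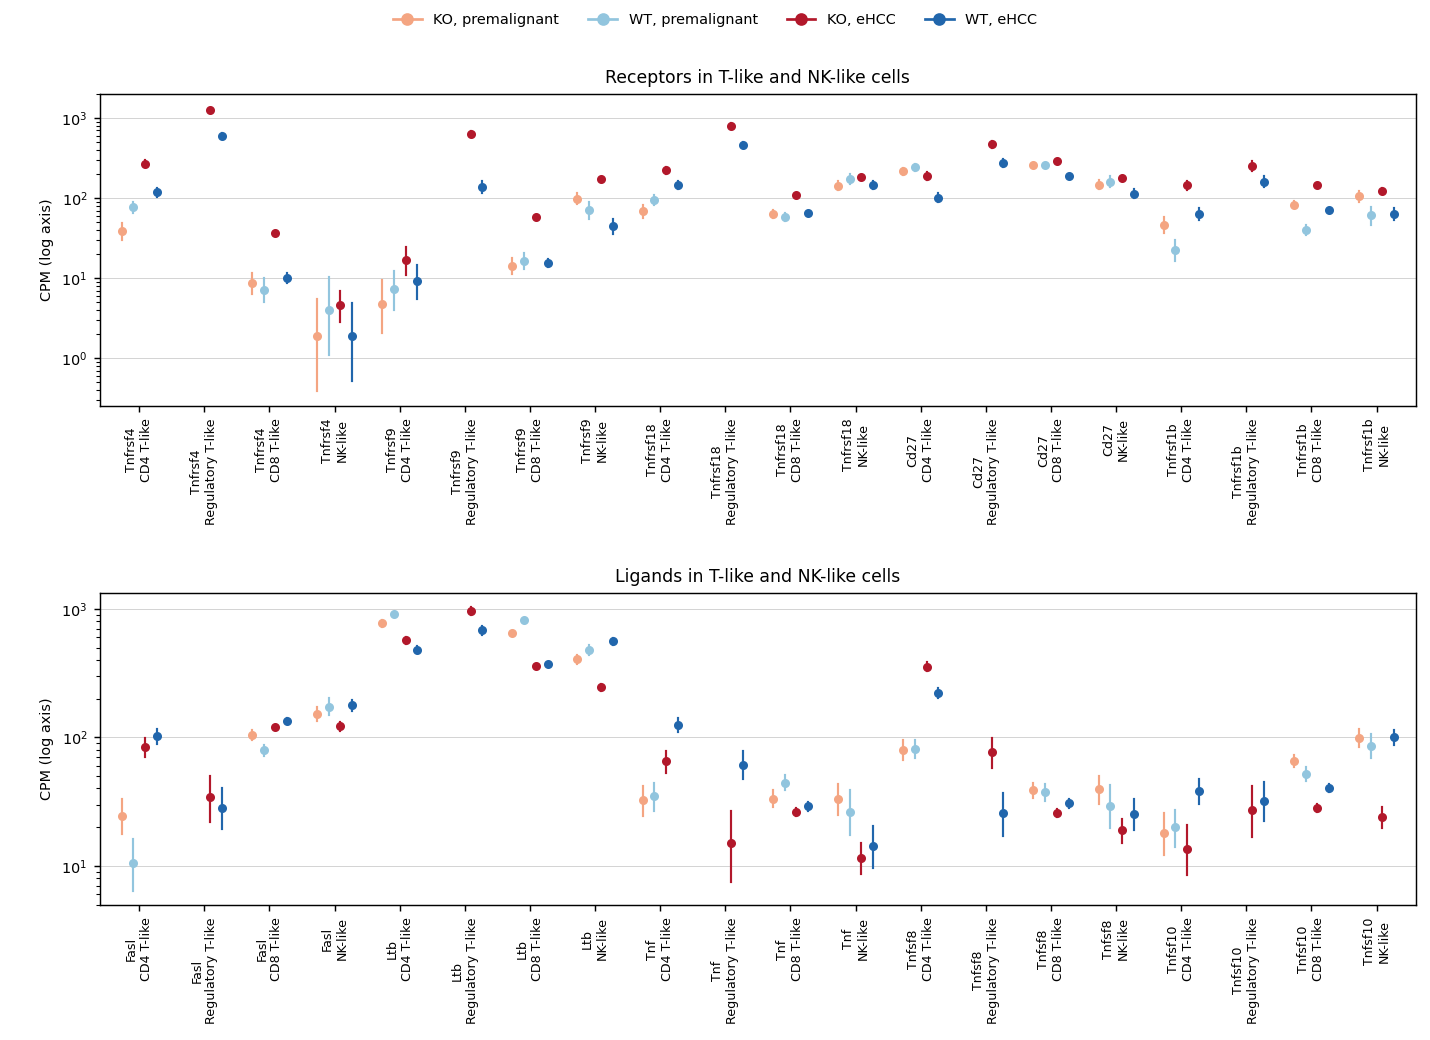
CPM (log axis) of 5 receptors (top) and 5 ligands (bottom) in CD4 T-like, regulatory T-like, CD8 T-like and NK-like cells of the 4 libraries, with exact Poisson 95% intervals; classes under 50 cells in a library are left out. The KO eHCC library is highest for Tnfrsf4, Tnfrsf9 and Tnfrsf1b in CD8 T-like cells and lowest for Tnfsf10 in NK-like cells.

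These class values compare largely different clusters, since the T-like and NK-like cells of the eHCC libraries rarely shared one. KO CD8 T-like cells lay mainly in clusters t2, t5, t6 and t7 and WT cells in t0, t4 and t17, KO and WT CD4 T-like cells in t19 and t12, and NK-like cells in t18 and t32 against t20. Cluster t7 held 457 KO and 56 WT CD8 T-like cells, and there Cd27 was at 236 and 109 CPM (log2 ratio 1.12 [0.67, 1.60]), Tnfrsf1b at 122 and 82.9 (0.56 [0.04, 1.12]) and Tnfrsf18 at 102 and 67.4 (0.60 [0.03, 1.23]). The intervals of Tnfrsf9 (0.82 [-0.46, 2.47]) and Tnfrsf4 (0.08 [-0.64, 0.89]) included 0 in this cluster. Cluster t5 of the KO library (760 cells) had 183 CPM of Tnfrsf9 and 86.1 of Tnfrsf4, and cluster t25 of the WT library (189 cells) had 118 and 45.9, so clusters with both RNAs were present under either label. In t11, a T-like cluster with mixed defining markers shared by 216 KO and 132 WT cells, Tnfrsf9 (140 and 46.9 CPM, 1.58 [1.29, 1.87]), Tnfrsf4 (156 and 73.5 CPM, 1.09 [0.85, 1.33]) and Cd27 (224 and 119 CPM, 0.91 [0.73, 1.10]) were higher in KO. The leading genes of t11 included Hist1h2ap, Hist1h1b, Hist1h2ae and Pclaf, which are genes of dividing cells. Whether its mix of T subsets differed between the labels was not tested.

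Other receptors of T-like and NK-like cells were higher in KO at eHCC as well. Tnfrsf25 (DR3) was at 6.62 and 2.29 CPM in CD8 T-like cells (log2 ratio 1.53 [1.05, 2.04]) and at 39.6 and 16.6 CPM in CD4 T-like cells (1.26 [0.64, 1.9]). Fas was at 19.6 and 4.75 CPM in NK-like cells (2.04 [1.10, 3.15]) and at 60.0 and 36.6 CPM in regulatory T-like cells (0.71 [0.06, 1.37]), with 26.1 and 20.5 CPM in CD8 T-like cells. RNA of receptors led by other lineages was lower there. The log2 ratio of Cd40, a B and myeloid receptor, was -2.66 [-3.70, -1.73] in CD8 T-like cells. Tnfrsf13b had -1.80 [-2.44, -1.18] in the same cells and Tnfrsf13c -2.5 [-3.40, -1.66] in NK-like cells. Counts were low, with 32 Tnfrsf13b UMIs in the 3455 KO CD8 T-like cells. Whether these RNAs came from the cells of the class was not tested.

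Among the ligands of T-like and NK-like cells, Tnfsf10, Tnf and Ltb were lower in KO at eHCC in some classes. Tnfsf10, the TRAIL gene, was at 99.2 [84.4, 116] and 86.3 [68.9, 107] CPM in NK-like cells before tumours (KO and WT) and at 23.9 [19.7, 28.8] and 100 [87.1, 115] CPM at eHCC. The KO eHCC library was the low one, with a log2 ratio of -2.07 [-2.41, -1.73] at eHCC, and CD4 T-like cells had -1.48 [-2.24, -0.78]. Tnf was at 65.0 and 124 CPM in KO and WT CD4 T-like cells (-0.94 [-1.28, -0.60]) and at 15 and 61.3 CPM in regulatory T-like cells (-2.03 [-3.10, -1.10]). Ltb in NK-like cells was at 245 and 559 CPM (-1.19 [-1.31, -1.07]), but its CD8 T-like values, 357 and 369 CPM, were close. Tnfsf11 was higher in KO, at 114 and 51.2 CPM in CD4 T-like cells (1.15 [0.80, 1.51]), as was Tnfsf8, at 355 and 222 CPM there (0.68 [0.50, 0.86]) and 76.3 and 25.6 CPM in regulatory T-like cells (1.58 [0.90, 2.28]). Fasl was under 1.5-fold in all 4 classes in which it was measured, and Cd40lg in both.

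**Figure D3:**
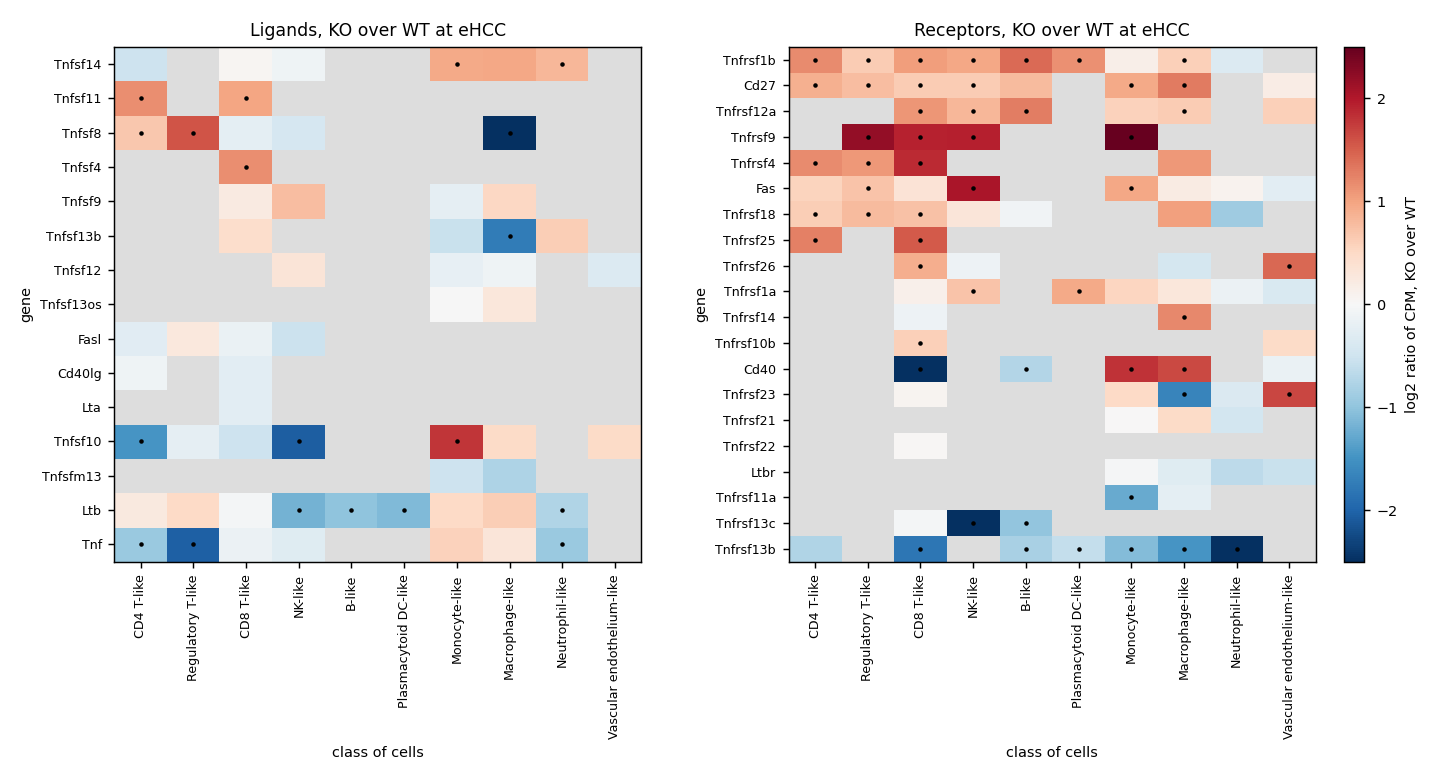
Log2 ratio of CPM, KO over WT at eHCC, for each ligand (left) and receptor (right) with at least 50 UMIs in the libraries together; grey marks pairs below that minimum and colours saturate at 2.5. Dots mark pairs past 1.5-fold whose interval excludes 0; Tnfrsf9, Tnfrsf4, Cd27 and Tnfrsf12a are not lower in any class measured and Tnfrsf13b is not higher in any.

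B-like cells of the KO eHCC library had lower levels of their survival receptors and of lymphotoxin. Ltb was at 754 [734, 775] and 896 [878, 915] CPM before tumours (KO and WT) and at 321 [300, 344] and 643 [606, 681] CPM at eHCC, and the KO eHCC library was the lowest (log2 ratio -1.0 [-1.13, -0.87] at eHCC). Tnfrsf13c, the BAFF receptor, was at 188, 204, 78.1 and 155 CPM (-0.99 [-1.26, -0.72]), Tnfrsf13b at 129, 141, 43.4 and 75.8 CPM (-0.80 [-1.18, -0.43]) and Cd40 at 66.9, 61.8, 38.7 and 64.0 CPM (-0.73 [-1.13, -0.32]). Tnfrsf1b went the other way, with 44.9 CPM in KO eHCC and 16.8 in WT eHCC, as did Tnfrsf12a with 19.1 and 7.86 CPM (1.29 [0.40, 2.26]). The genotypes again differed in clusters: 498 of the 512 KO B-like cells at eHCC lay in cluster c17, and 347 of the 369 WT cells in c0, with the premalignant B-like cells. Erythroid genes made up 3765 CPM of the KO and 228 CPM of the WT B-like cells at eHCC, and their part in these ratios was not tested. In plasmacytoid dendritic-like cells, which share 1 cluster, Tnfrsf13b was at 137 and 206 CPM (-0.59 [-0.95, -0.23]) and Ltb at 22.2 and 47.3 CPM (-1.09 [-1.95, -0.25]).

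In monocyte-like cells the CD40 receptor gene was higher in KO at eHCC and the receptors RANK and TACI were lower. Cd40 was at 36.2 [26.0, 49.2] and 57.4 [42.6, 75.7] CPM before tumours (KO and WT) and at 58.0 [53.3, 63.0] and 16.7 [13.8, 19.9] CPM at eHCC, and the WT eHCC library was the low one (log2 ratio 1.80 [1.51, 2.10] at eHCC). Tnfrsf11a was at 19.4, 21.8, 14.4 and 34.7 CPM (-1.27 [-1.58, -0.96]) and Tnfrsf13b at 43.3, 60.9, 26.3 and 55.5 CPM (-1.08 [-1.31, -0.85]). Most KO cells lay in clusters m3 and m4, and most WT cells in m8. In m4, the cluster shared by 312 KO and 72 WT cells, Cd40 was at 89.8 and 116 CPM, a log2 ratio of -0.37 [-0.71, -0.02], so its direction turned, whereas Tnfrsf13b kept it (19.6 and 42.2 CPM, -1.11 [-1.71, -0.47]). Tnfrsf12a, the TWEAK receptor, was at 34.6 and 23.3 CPM over the class and at 45.4 and 3.96 CPM within m4 (3.52 [1.95, 5.81]). Fas was at 35.7 and 18.3 CPM in the class (0.96 [0.67, 1.26]) and at 27.0 and 31.7 CPM in m4. Tnfrsf9 had 53 UMIs in KO and 1 in WT monocyte-like cells, in 2.80% and 0.210% of the cells. Tnfsf10 had 60 and 13 UMIs (1.79 [0.90, 2.78]).

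Macrophage-like cells at eHCC were 221 in the KO and 2288 in the WT library, and their members differed in level and in the clusters behind them. Cd40 was at 35.8 [28.6, 44.4] and 11.4 [10.4, 12.5] CPM (log2 ratio 1.65 [1.30, 1.99]), Tnfsf13b (BAFF) at 8.10 [4.88, 12.7] and 27.1 [25.5, 28.8] CPM (-1.74 [-2.48, -1.09]) and Tnfrsf13b at 16.6 and 46.3 CPM (-1.48 [-1.97, -1.02]). Tnfsf8 had 2 UMIs in KO against 352 in WT, 0.853 and 9.17 CPM (-3.43 [-6.48, -1.56]). Tnfrsf11a (58.0 and 68.8 CPM) and Tnfsf12 (69.5 and 75.3 CPM) were within 1.5-fold. Clusters m0, m2 and m6 held most WT cells, and 6 KO cells lay in m0, 1 in m2 and 0 in m6. The class was also shallower in KO, with a median of 3823 UMIs a cell against 16145, and 125 of the KO cells lay in m11, where the median was 1561; the part of depth was not tested. In the shared cluster m10 (89 KO and 155 WT cells) Cd40 was at 32.7 and 26.5 CPM (0.30 [-0.20, 0.80]) and Tnfrsf13b at 16.1 and 15.6 CPM (0.05 [-0.65, 0.74]). Tnfrsf12a (23.2 and 6.01 CPM, 1.95 [1.12, 2.84]) and Tnfrsf1b (128 and 88.0 CPM, 0.54 [0.28, 0.80]) were higher in KO within m10. Over the class, Tnfrsf23 was lower in KO (6 and 310 UMIs, -1.66), and the low counts of Cd27 (18 and 120 UMIs, 1.30) and Tnfrsf14 (9 and 64 UMIs, 1.2) gave higher levels there.

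Neutrophil-like and endothelial cells gave fewer measurable members. Neutrophil-like cells (65 KO, 694 WT) shared clusters m9 (35 KO and 215 WT cells) and m19 (28 and 77), but 366 WT cells lay in m7 with 1 KO cell. They shared no cluster of at least 50 cells in both. They had 44.9 and 85.4 CPM of Tnf (log2 ratio -0.93 [-1.63, -0.30]) and 143 and 239 CPM of Ltb (-0.74 [-1.12, -0.39]), but 55.7% of all genes measured in this class were at least 1.5-fold lower in KO, with a median log2 ratio of -0.70. These members thus lay near that median, and Tnfrsf13b, with 1 KO and 60 WT UMIs, lay below it (-3.22 [-8.54, -0.68]). In vascular endothelium-like cells (59 KO, 153 WT) the decoy-type receptors Tnfrsf23 (71.2 and 22.4 CPM, 1.67 [1.12, 2.22]) and Tnfrsf26 (53.1 and 19.6 CPM, 1.44 [0.82, 2.06]) were higher in KO. Tnfrsf22, Tnfrsf23 and Tnfrsf26 are related neighbours on chromosome 7, so the split of reads among them is uncertain.

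**Figure D4:**
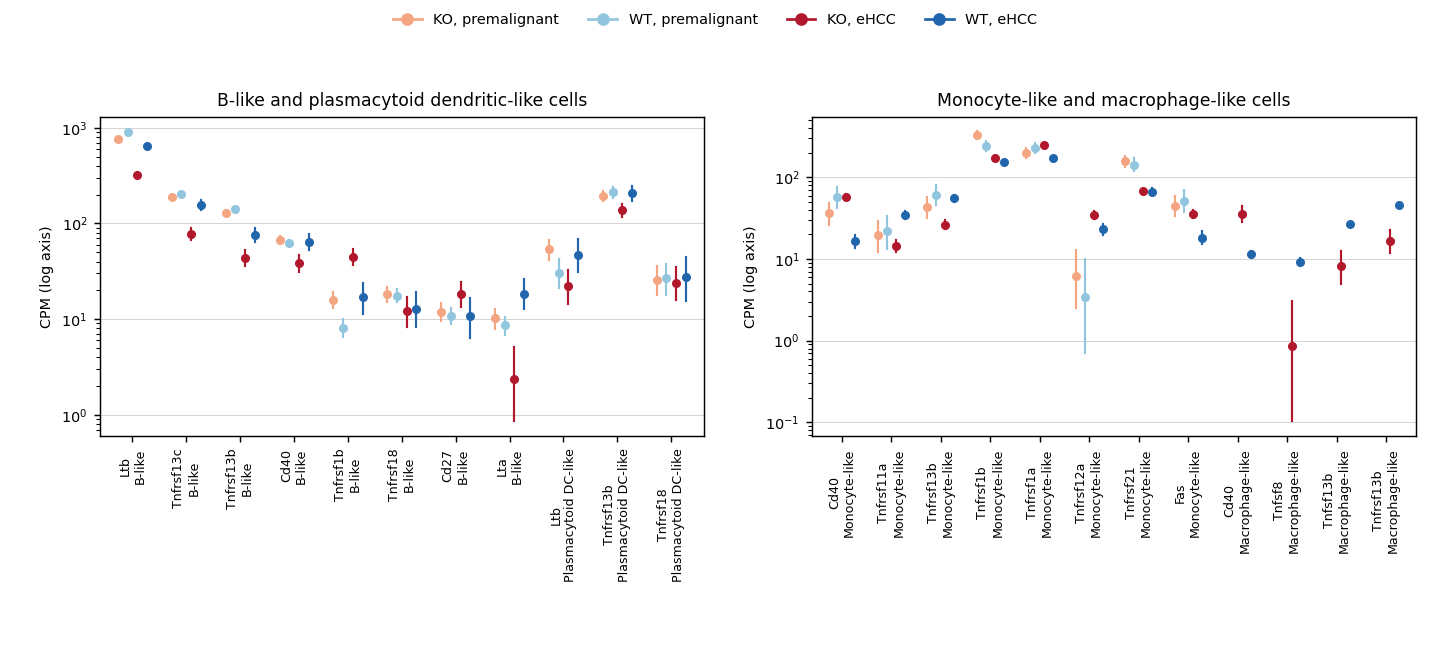
CPM (log axis) of selected members in B-like and plasmacytoid dendritic-like cells (left) and in monocyte-like and macrophage-like cells (right) of the 4 libraries, with exact Poisson 95% intervals; classes under 50 cells in a library are left out. In B-like cells the KO eHCC library is lowest for Ltb, Tnfrsf13c, Tnfrsf13b, Cd40 and Lta and highest for Tnfrsf1b.

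Before tumours fewer members were past 1.5-fold between the genotypes, and Tnfrsf1b was so in the most classes, followed by Fasl and Ltb in 2 each. Of 103 pairs, 15 (14.6%) were at least 1.5-fold higher in KO, against 10.6% of all gene and class pairs, and 3 (2.91%) at least 1.5-fold lower, against 3.93%. Both shares are near the background. Tnfrsf1b made up 6 of the 15, with log2 ratios of 1.04 [0.80, 1.29] in CD8 T-like, 1.03 [0.47, 1.60] in CD4 T-like, 0.97 [0.55, 1.4] in B-like, 0.91 [0.33, 1.49] in LSEC-like, 0.80 [0.06, 1.56] in plasmacytoid dendritic-like and 0.78 [0.35, 1.23] in NK-like cells. Unlike at eHCC, the premalignant libraries shared their clusters, and within them Tnfrsf1b was higher in KO in t1 (136 and 74.3 CPM of CD8 T-like cells, 0.87 [0.57, 1.19]), t15 (86.2 and 52.2 CPM of CD4 T-like cells, 0.72 [0.13, 1.34]) and c0 (16.4 and 8.05 CPM of B-like cells, 1.02 [0.60, 1.45]).

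The other premalignant differences each concerned 1 or a few classes. Tnfsf14 (LIGHT) was at 54.9 and 24.4 CPM in KO and WT NK-like cells (1.17 [0.51, 1.89]), and Fasl at 24.5 and 10.5 CPM in CD4 T-like cells (1.22 [0.42, 2.07]). Tnfrsf4 in CD4 T-like cells was lower in KO (-0.98 [-1.42, -0.55]), also within cluster t15 at 72.8 and 190 CPM (-1.39 [-1.87, -0.92]). With separate clustering of each library the direction over the class turned (0.35). Cluster t15 also had markers of regulatory T cells. Their mean log2 fold over the other T-like and NK-like clusters was 1.94, against 2.22 for the CD4 T markers. Whether the mix of T subsets in t15 differed between the labels was not tested. Tnf in plasmacytoid dendritic-like cells was at 25.7 and 67.7 CPM (-1.39 [-2.02, -0.79]), and 50% of its 34 KO UMIs came from 1 cell. Erythroid genes were at 37.9 and 6141 CPM in these cells, and their part was not tested. Tnfrsf17 had 89 UMIs in KO and 2 in WT B-like cells, and 63 of the 89 lay in 24 cells of cluster c17 that were rich in Jchain, an antibody-secreting cell gene. In LSEC-like cells the lymphoid genes Ltb (12.9 and 6.86 CPM), Fasl (1.81 and 0.773 CPM) and Tnfrsf18 (1.69 and 0.749 CPM) were low and higher in KO, as was the TRAIL receptor Tnfrsf10b (3.13 and 2.08 CPM). The LSEC genes of the family were closer, with Tnfsf10 at 160 and 148 CPM, Tnfrsf1a at 335 and 354, Ltbr at 125 and 103, Tnfsf12 at 101 and 114 and Fas at 106 and 110.

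Between the stages, ligands of CD4 T-like cells were higher at eHCC under both labels. In the KO libraries 23 of 98 pairs (23.5%) were at least 1.5-fold higher at eHCC, against 7.30% of all gene and class pairs, and 36 (36.7%) lower, against 31.4%. In the WT libraries 20 of 93 (21.5%) were higher, against 8.55%, and 32 (34.4%) lower, against 16.0%. In CD4 T-like cells 5 of 7 ligands were higher and none lower in KO, and 7 of 8 higher and 1 lower in WT. Over all genes of these cells 9.57% were higher and 27.4% lower in KO, and 11.9% and 10.9% in WT. Fasl there was at 24.5 and 10.5 CPM in the premalignant KO and WT libraries and at 83.6 and 102 CPM at eHCC, log2 ratios of 1.77 [1.26, 2.31] in KO and 3.28 [2.62, 4.02] in WT. The ratios, KO then WT, were 2.40 and 2.08 for Tnfsf11, 2.15 and 1.46 for Tnfsf8, 1.23 and 1.36 for Cd40lg and 1.01 and 1.84 for Tnf. Ltb was lower at eHCC in WT, from 904 to 479 CPM (-0.92 [-1.03, -0.80]), and within 1.5-fold in KO, at 769 and 568 CPM. The stages shared no CD4 T-like cluster of at least 50 cells in both, so these ratios compare different clusters.

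Costimulatory receptors of T-like cells had larger stage ratios in KO than in WT. Tnfrsf4 in CD4 T-like cells had log2 ratios, eHCC over premalignant, of 2.79 [2.41, 3.19] in KO and 0.63 [0.33, 0.94] in WT, and Tnfrsf18 there 1.70 [1.39, 2.02] and 0.62 [0.35, 0.90]. In CD8 T-like cells Tnfrsf9 had 2.03 [1.70, 2.39] and -0.11, and Tnfrsf4 2.07 [1.64, 2.53] and 0.48. Tnfrsf1b was higher at eHCC in CD4 T-like cells by 1.65 and 1.5, in CD8 T-like cells by 0.80 and 0.80, and in B-like cells by 1.5 and 1.05, and was lower in monocyte-like cells by -0.95 and -0.65. The difference between the genotypes in these stage ratios was not tested. The stages shared no CD8 T-like, NK-like or monocyte-like cluster of at least 50 cells in both either, with premalignant CD8 T-like cells mainly in t1, t10 and t16 and monocyte-like cells in m12, so these ratios too compare different clusters. Cd27 in CD4 T-like cells was lower at eHCC in WT (-1.25 [-1.49, -1.01]) and within 1.5-fold in KO.

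**Figure D5:**
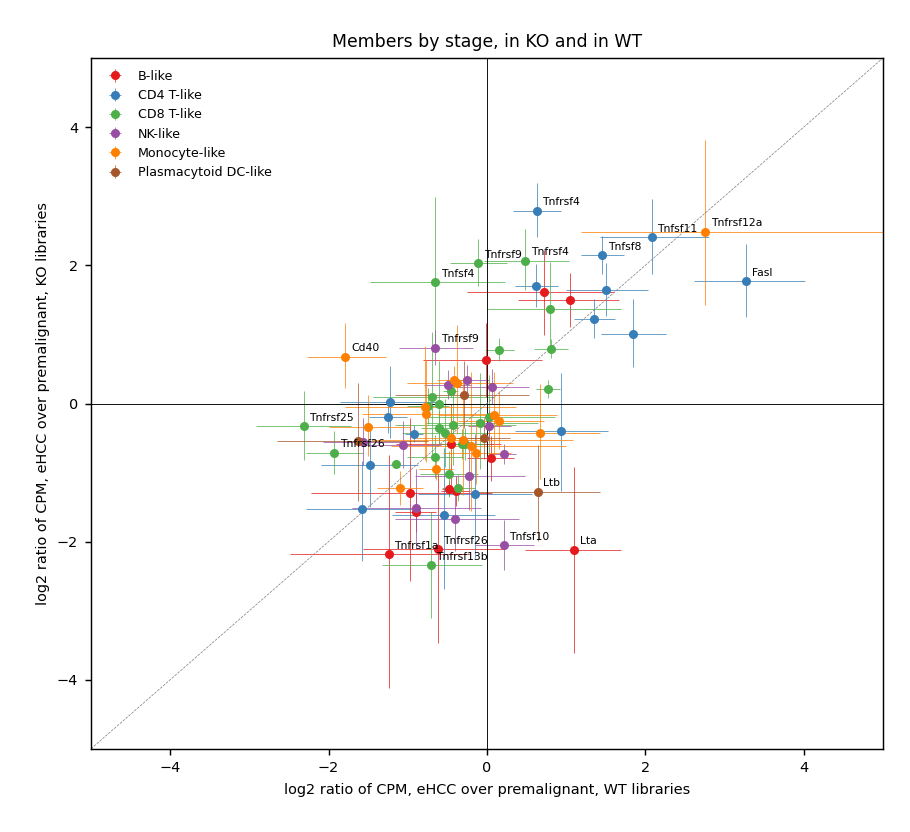
Log2 ratio of CPM, eHCC over premalignant, in the WT libraries (x) and the KO libraries (y) for the 85 pairs of a member and a class measured in both, with exact binomial 95% intervals, coloured by class; the dashed line marks equal ratios and some intervals run beyond the axes. Fasl, Tnfsf11 and Tnfsf8 of CD4 T-like cells lie in the upper right, and Cd40 of monocyte-like cells lies at -1.79 in WT and 0.68 in KO.

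Lymphotoxin and several receptors differed with stage in CD8 T-like, B-like and monocyte-like cells, again mostly between different clusters, since KO B-like cells lay in c0 before tumours and in c17 at eHCC. In the KO libraries 35.5% of all genes were at least 1.5-fold lower at eHCC in CD8 T-like cells (median log2 ratio -0.36). This share was 39.2% in B-like (-0.43), 37.2% in NK-like (-0.38) and 22.0% in monocyte-like cells (-0.14). In WT the shares were 13.8% (-0.15), 20.7% (-0.22), 19.1% (-0.22) and 15.6% (-0.02) in the same order. Ltb was lower at eHCC in CD8 T-like cells, by a log2 ratio of -0.87 [-0.93, -0.82] in KO and -1.15 [-1.21, -1.10] in WT, and in KO B-like cells by -1.23 [-1.34, -1.13]. Tnfrsf13b in B-like cells was lower by -1.57 in KO and -0.89 in WT, and Tnfrsf13c by -1.27 in KO. In WT the B-like comparison could be made within cluster c0, which held 347 eHCC and 2613 premalignant cells. Monocyte-like cells had Tnfrsf21 at 157 and 144 CPM in the premalignant KO and WT libraries and 67.4 and 67.1 CPM at eHCC (-1.22 and -1.10), and Tnfrsf12a at 6.19 and 3.45 CPM and then 34.6 and 23.3 CPM (2.49 [1.43, 3.81] and 2.76 [1.19, 5.05]). Cd40 in these cells was lower at eHCC in WT (-1.79 [-2.27, -1.28]) and higher in KO (0.68 [0.22, 1.17]). In NK-like cells Tnfsf10 was lower at eHCC in KO (-2.05 [-2.42, -1.69]) and at 86.3 and 100 CPM in WT. Lta, the soluble lymphotoxin, was lower at eHCC in KO B-like cells (73 UMIs before and 6 at eHCC, -2.12 [-3.61, -0.93]) and higher in WT (1.11 [0.48, 1.70]).

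Set side by side, the ligands and receptors of several pairs had separate sources, while those of others shared a class. For 4-1BB, the ligand Tnfsf9 was highest in type 2 dendritic-like cells, at 191 [168, 218] CPM in the WT eHCC library, and the receptor Tnfrsf9 in regulatory T-like and NK-like cells. For RANK, the ligand Tnfsf11 was led by CD4 T-like cells, the receptor Tnfrsf11a by mature dendritic-like, macrophage-like and Kupffer-like cells (59.0 [50.6, 68.6] CPM in the WT premalignant library, the only one with at least 50 Kupffer-like cells), and the decoy Tnfrsf11b by stellate or fibroblast-like cells (119 [93.5, 150] CPM in the KO premalignant library). For TWEAK, LSEC-like cells led the ligand Tnfsf12, and cholangiocyte-like and hepatocyte-like cells (61.2 CPM in WT premalignant and 83.7 CPM in WT eHCC) had the receptor Tnfrsf12a. For lymphotoxin, Ltb was lymphoid and Ltbr endothelial and myeloid. Mast cell or basophil-like cells had 196 [171, 223] CPM of Tnf in the KO eHCC library, where 303 of the 363 such cells lay. For OX40, with the libraries summed, regulatory T-like cells led both the ligand Tnfsf4 (8.58 CPM, with 7.34 in mature dendritic-like cells) and the receptor Tnfrsf4 (846 CPM). In each eHCC library these cells also led both Cd27 and its ligand Cd70, of few UMIs, among classes of at least 50 cells. RNA levels alone do not show that any pair was engaged.

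The adaptors, proteases and NF-kappaB genes that act with these receptors were counted in the same way between the eHCC libraries; how they differ from the members was not tested. From a list of 38 such genes (TRAF and death-domain adaptors, caspase-8 and its inhibitor, NF-kappaB kinases, subunits and inhibitors, and the sheddases Adam10 and Adam17), 7 of 38 were at least 1.5-fold higher in KO and 1 lower in CD8 T-like cells, with a median log2 ratio of 0.20. CD4 T-like cells had 11 of 35 higher and 0 lower (0.26), NK-like cells 4 of 37 and 5 (0.04), and B-like cells 8 of 36 and 2 (0.05). In monocyte-like cells 9 of 38 were higher and 3 lower (0.23), and in macrophage-like cells 10 of 38 and 1 (0.26). In neutrophil-like cells 1 of 32 was higher and 16 were lower (-0.60), where 55.7% of all genes were lower. Over all genes the shares at least 1.5-fold higher and lower in KO were 8.67% and 14.8% in CD8 T-like, 9.10% and 14.2% in CD4 T-like, 10.3% and 15.2% in NK-like, 7.42% and 11.5% in B-like, 9.60% and 14.2% in monocyte-like and 13.1% and 18.5% in macrophage-like cells.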

How the data were processed

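Single-cell RNA was captured from 4 liver libraries, 1 per genotype label and stage. The deposited values are raw UMI counts per gene and cell barcode, written by Cell Ranger 3.0.1 per the file headers; bcl2fastq 2.20.0 and the builds GRCh38 and mm10 are listed in the submitters' processing notes, with no role given. How the barcodes were filtered before deposit is not stated in the labels.

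Barcodes were kept from 500 UMIs and 300 genes upward, with a mitochondrial share of at most 25%, and the highest scrublet scores (0.8% per 1000 cells) were removed as doublets. Cells were clustered with scanpy 1.11.5 and leidenalg 0.10.2 on 2000 variable genes without the members (40 principal components, 15 neighbours, resolution 1), and T-like and myeloid cells again. The rule that names a cluster from marker lists was revised after cell numbers and values had been seen, so differences between classes may come from these rebuilt names; clusters with too few or mixed markers stayed unnamed. UMIs were summed per class and library. A ratio was computed where both libraries held at least 50 cells of the class and together at least 50 UMIs of the gene, and a count of 0 was set against 3 UMIs. Named are up to 30 pairs per comparison past 1.5-fold whose interval excludes 0, by size, and members with at least 200 UMIs in their leading class; the values within clusters and in further classes were chosen after they were seen. The members and lists were chosen with earlier results of these data known. The intervals were tested on simulated counts for KO against WT at eHCC in CD8 T-like cells (10787 genes), where they held a true log2 ratio of -2 for 91.1% of genes, -1 for 95.5%, 1 for 98.1% and 2 for 96.3%, and for stage in KO B-like cells (8651 genes), where these shares were 95.7%, 97.6%, 92.3% and 100%. These simulated counts were Poisson draws of class sums without spread between cells, so they check the calculation of the intervals only. Gene coordinates are from the GRCm38 annotation.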

Additional observations from a re-analysis of the deposited data

Results flagged for a closer look

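The differences between libraries in these results went opposite ways in the groups compared. With 1 library a group, the difference of the ratios was not tested.

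Tnfrsf4 in CD4 T-like cells was lower in KO before tumours (log2 ratio -0.98) and higher at eHCC (1.18), a difference of 2.16. With separate clustering of each library the premalignant ratio turned to 0.35. Cd40 in monocyte-like cells was lower in KO before tumours (-0.67) and higher at eHCC (1.80), a difference of 2.46. Within m4, the monocyte-like cluster shared at eHCC, the ratio was -0.37 [-0.71, -0.02], so that direction turned. The same 4 values, taken between stages, gave 0.68 in KO and -1.79 in WT, also 2.46 apart. Ltb in plasmacytoid dendritic-like cells was higher in KO before tumours (0.83) and lower at eHCC (-1.09), a difference of -1.92. Lta in B-like cells was lower at eHCC in KO (-2.12) and higher in WT (1.11), a difference of -3.22 that rests on 6 UMIs in the KO eHCC library. Tnfrsf9 in NK-like cells was higher at eHCC in KO (0.81) and lower in WT (-0.65), a difference of 1.46.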

How the results depend on the processing

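No paired analysis was possible because the labels carry no replicate numbers and each group is 1 library. Counts of pairs follow as higher and lower. The share of all gene and class pairs was not computed at any of the changed settings, so these counts cannot be set against a background. With at least 1 UMI, they were 69 and 49 for KO against WT before tumours, 132 and 97 at eHCC, 50 and 87 for stage in KO, and 75 and 87 for stage in WT. At 2-fold the same counts were 7 and 1, 28 and 16, 17 and 21, and 11 and 15. After thinning to 1000 UMIs a cell they were 2 and 2, 17 and 13, 13 and 12, and 4 and 7. With at least 20 UMIs, 28 and 13 pairs differed before tumours and 41 were lower in KO at eHCC. The 3 pairs lower in KO before tumours became 8 with each cell weighted equally, 6 at resolution 2, and 5 with each library clustered on its own. Keeping doublets gave 34 pairs higher at eHCC in WT, and centring on the median gene left 23 lower at eHCC in KO.

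Chosen after seeing the data, all T-like cells as 1 class gave 15 pairs higher at eHCC in KO, 13 in WT, and 13 members with 1 leading class throughout. Leaving out the 24 Jchain-rich cells, also chosen afterwards, gave 5 pairs lower in KO before tumours. Keeping only pairs at least 3 times the level in hepatocyte-like and erythroid-like cells, chosen afterwards as well, left each count within 1.5 times. A pair was kept if it reached that level in either library, so this setting cannot show the part of free RNA. Direction reversed for Tnfrsf17 (0.64) and Fas (0.036) in B-like cells for stage in KO with doublets kept, and for Tnfrsf4 in CD4 T-like cells before tumours (0.35) with each library clustered on its own. Of the other recomputed ratios of named members, 1398 stayed within their interval and 57 moved beyond it without reversing. Many of the 1398 could not move, because changing the UMI minimum, the fold, the classes included or the pairs kept leaves a ratio as it was. Thinning kept 15 ratios within their interval and moved 12. Clustering each library on its own kept 84, moved 18 and reversed 1. Depth limits the members with few UMIs: after thinning, fewer pairs could be measured.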
